A study of Macaca mulatta with 304 samples.

Results

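The aminoacyl-tRNA synthetase genes encode the enzymes that join each amino acid to its own tRNA before it can be used in protein synthesis. They were followed here in the whole blood of rhesus macaques before and after irradiation of the chest. The members were chosen by gene symbol, and no measured value enters that rule, although the family was proposed with earlier results of the same samples known, so its counts are given as a description. There were 36 members among the 21070 genes of the count table: 20 genes for cytosolic enzymes or their subunits, and 16 nuclear genes for enzymes that work in mitochondria, whose symbols end in 2. All 36 passed the filter on low counts, which left 13751 genes to test.

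Cells keep separate sets of these enzymes, because mitochondria translate their own few mRNAs with their own tRNAs. Several cytosolic synthetases sit together in a multi-synthetase complex held by scaffold proteins. Genes of cytosolic synthetases are known targets of ATF4, the transcription factor of the integrated stress response, and WARS, the tryptophan enzyme, is a classical gene of the interferon-gamma response. In blood, lymphocytes, monocytes, neutrophils, platelets and young red cells all contribute RNA, and each has its own rate of protein synthesis.

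The samples came from 28 animals of the Chinese sub-strain, 14 females and 14 males aged 3 to 5 years, whose thorax received 9.8 Gy (12 animals, low dose) or 10.7 Gy (16 animals, high dose). Control blood was drawn 2 days before irradiation from 24 of these animals, so each control is the animal's own earlier sample and there was no unirradiated group. Of the samples, 24 were controls, 132 fell in the early window (Day 3 to 21), 95 in the medium window (after Day 21, to Day 90) and 53 in the late window (after Day 90), and 8 of them were draws outside the schedule, taken when an animal was euthanized. All animals received ondansetron before irradiation under ketamine and xylazine, and tramadol or buprenorphine from Day 4 to 25, and animals with rapid breathing were given dexamethasone, so these agents run alongside the time course. The late window held 16 animals, 12 of them low dose and 4 high dose, since animals that met the criteria for euthanasia had left the study by then. The total count of a library lay between 2840219 and 23638161, and the median library had 8227563. The sample descriptions carry a library number that splits the samples into 3 series, called A, B and C here, of 120, 34 and 150 samples. All medium and late samples were of series B or C while 20 of 24 controls were of series A, so library series and time cannot be told apart over most of the course. In 5 libraries the median correlation with all other libraries was below 0.88, against 0.889 to 0.96 in the rest. These were 1 library of Day 40, in which 12 erythroid marker genes summed to 334600 CPM (counts per gene scaled to a common library size), 1 each of Day 120 and Day 150, and 2 of Day 270. None of the fixed marker genes of T, B, plasma, NK, myeloid, erythroid and platelet cells in the table was at 0 in all samples. The table held 7 of 8 listed monocyte markers and 8 of 9 listed platelet markers. This check asks only for a count in any 1 sample, so it could not test the blood label. In bulk blood, fewer cells of a type and less RNA per cell cannot be told apart.

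The sequences that bear on the regulation of the family are the sites of 2 known elements just before the annotated starts of member genes. They were read from the RefSeq genome Mmul_10, in the 250 bases before any annotated transcript start and on both strands, and are printed on the gene's own strand, 5′ to 3′. The element bound by ATF4 was searched as TGATGNAA, and it is in capitals in the following sites, given because 5 of 20 cytosolic members and 2 of 16 mitochondrial members held it, against 4.48% of 20782 protein-coding genes.
AARS, chr20:61230522-61230547: ttctcgcagTTGCATCAgccaattta
CARS, chr14:3120248-3120273: gggcggtgaTTGCATCAgattctggg
IARS, chr15:107388043-107388068: ttcagcgcgTTGCATCAcctccacgc
TARS, chr6:33552678-33552703: gcctgtcgaTTGCATCAgctggtcca
YARS, chr1:191829633-191829658: gagcccagcTGATGCAAcctggctgg
FARS2, chr4:164811861-164811886: gacgtgcagTTGCATCAcggagagcc
In AARS, CARS, IARS, TARS and FARS2 the motif lay on the opposite strand and in YARS on the gene's own strand, and the letters TTGCATCA were the same in the former 5. The seventh match, in mitochondrial WARS2, differed inside the motif. It lay before an inner start, as did the sites of CARS, IARS, TARS, YARS and FARS2. The windows of the YARS and FARS2 sites lay wholly in exon bases of the same gene, and that of the TARS site held 225 such bases.

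The interferon-stimulated response element, searched as the letters TTTC, any 2 bases and TTTC, was present in the window of 1 of 20 cytosolic members, WARS, and of no mitochondrial member, against 5.42% of the 20782 genes. It began 87 bases before the innermost of 3 annotated starts of WARS (minus strand), in a window that overlaps no exon of WARS. The whole window is shown, with the element in capitals, because WARS is the member that rose most.
WARS, chr7:162595221-162595470: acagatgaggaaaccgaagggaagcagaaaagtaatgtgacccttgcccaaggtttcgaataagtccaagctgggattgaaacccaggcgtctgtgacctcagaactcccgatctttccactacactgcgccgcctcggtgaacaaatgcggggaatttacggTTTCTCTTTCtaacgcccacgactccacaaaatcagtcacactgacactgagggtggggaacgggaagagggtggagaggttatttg
The interferon-gamma element TTCNNNGAA was held by 3 cytosolic members (CARS, LARS, TARS) and by 4 mitochondrial ones (CARS2, PARS2, WARS2, YARS2), against 9.6% of genes. With only the outermost start of each gene, the shares over all genes fell to 2.59%, 3.03% and 5.98%, and AARS alone kept the ATF4 letters while WARS did not keep the interferon letters. A match of letters is a description and not a binding site.

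Before irradiation, levels per length (RPKM, which is CPM divided by the exon length in kilobases) were higher for cytosolic than for mitochondrial enzymes in most members. The medians over 24 control samples ran from 3.71 RPKM (FARSB, a subunit of the phenylalanine enzyme) to 60.7 RPKM (QARS, the glutamine enzyme) among cytosolic members. They ran from 1.75 (WARS2) to 16.9 RPKM (YARS2, the mitochondrial tyrosine enzyme) among mitochondrial members. WARS stood second with a median of 40.9 RPKM and a range of 24.2 to 92.6. Neighbours in this order mostly overlapped: WARS exceeded KARS, the next in order, in 14 of 24 control samples, while WARS2 was below its neighbour FARSB in all 24.

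**Figure D1:**
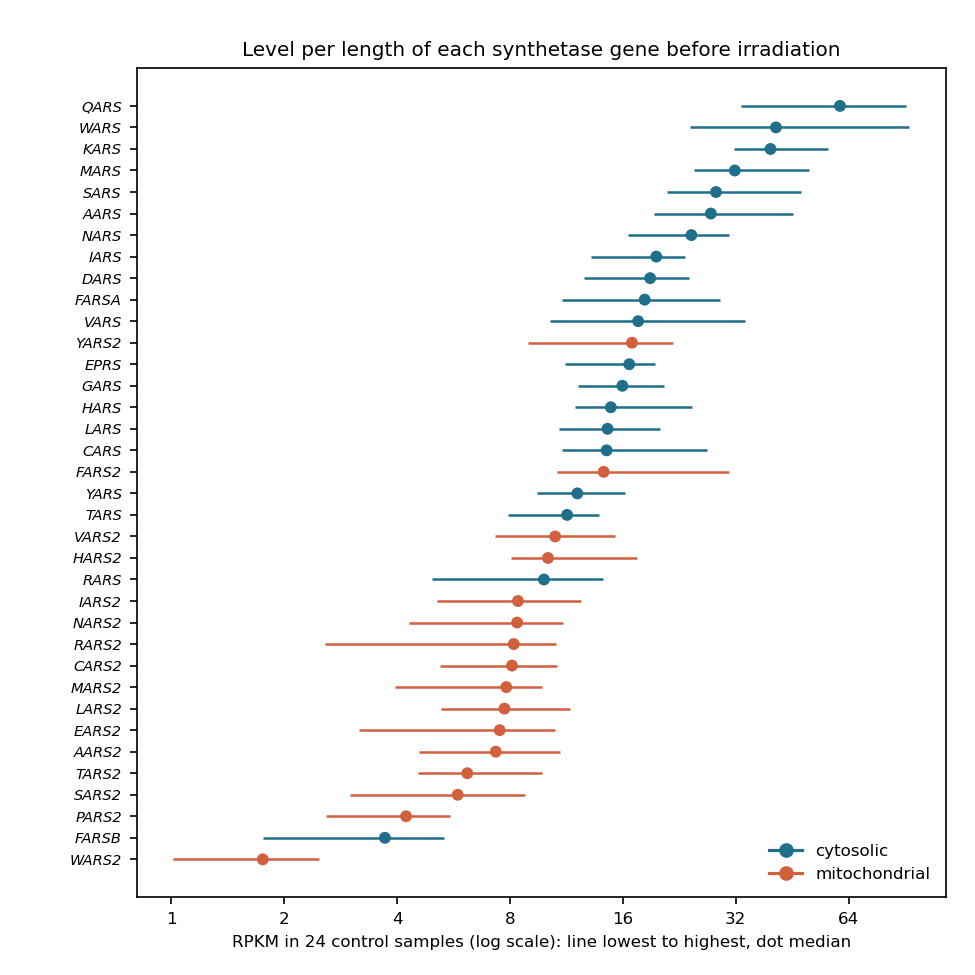
Level per length of the 36 synthetase genes in the 24 control samples, as RPKM on a log scale, with a line from the lowest to the highest sample and a dot at the median. Cytosolic members fill the upper part of the order, with YARS2 (16.9 RPKM) the highest mitochondrial member and FARSB (3.71 RPKM) the lowest cytosolic one.

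In the early window some cytosolic members rose and others fell, while those mitochondrial members that passed the test fell. Of 20 cytosolic members 6 rose and 6 fell relative to the animals' own controls (edgeR quasi-likelihood test with animal as block, adjusted p of at most 0.05 over all tested genes, 24 animals), and of 16 mitochondrial members none rose and 8 fell. Over all tested genes 21.1% rose and 27.9% fell, so the cytosolic counts lay near the background, and the mitochondrial count of falls was above it. Mitochondrial RARS2, WARS2 and SARS2 had values above 0 that did not pass (0.14, 0.01 and 0.0015). The median log2 fold change was 0.03 for cytosolic members, -0.15 for mitochondrial members and -0.02 for all tested genes.

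The cytosolic members that rose early were WARS (log2 fold change 0.59 ± 0.09 SE, adjusted p = 4.257e-06), FARSB (0.29 ± 0.07, adjusted p = 0.001327), EPRS, the fused glutamate and proline enzyme (0.24 ± 0.06, adjusted p = 0.001623), RARS for arginine (0.21 ± 0.08, adjusted p = 0.03085), NARS for asparagine (0.19 ± 0.05, adjusted p = 0.003208) and DARS for aspartate (0.16 ± 0.06, adjusted p = 0.02811). Those that fell were AARS, HARS, MARS, VARS, SARS and CARS, the enzymes for alanine, histidine, methionine, valine, serine and cysteine, with log2 fold changes from -0.26 (AARS) to -0.12 (CARS). The calls of CARS and SARS were lost with TMM scaling and with DESeq2, and also with samples of the control's own library series only. The mitochondrial members that fell early were HARS2, LARS2, AARS2, VARS2, TARS2, EARS2, FARS2 and CARS2, with log2 fold changes from -0.30 (HARS2) to -0.17 (CARS2). With samples of the control's own library series only, which kept all 24 animals, 6 cytosolic members rose and 4 fell, and 8 mitochondrial members fell. Of the 13751 tested genes 2832 rose and 3783 fell in that fit. In the 14 animals that also gave late samples, 3 cytosolic members rose and 3 fell in place of 6 and 6, and 7 mitochondrial members fell in place of 8, against 12.7% higher and 15.3% lower over all genes.

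**Figure D2:**
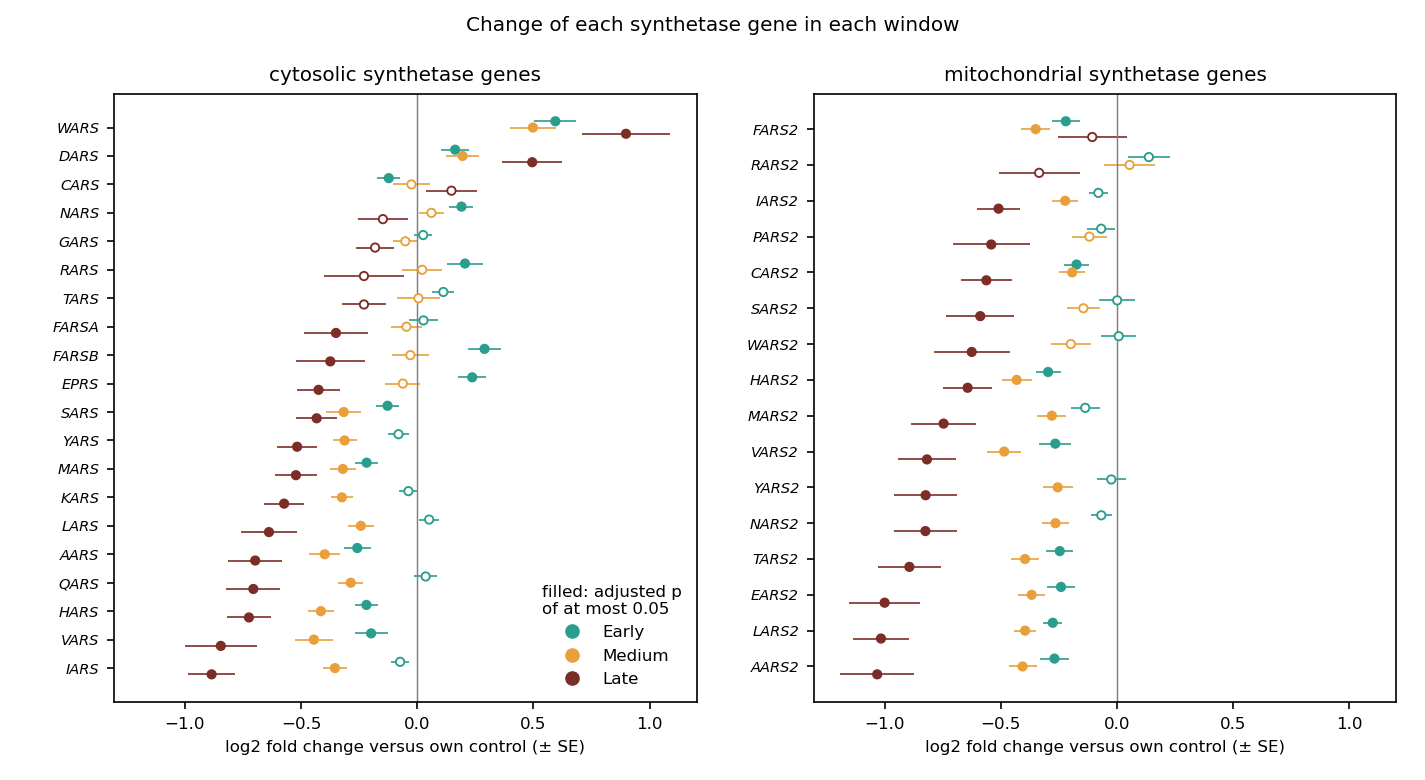
Log2 fold change against the animal's own control (x axis, bars ± SE) of each synthetase gene in the early (24 animals), medium (24) and late (14) windows, filled where the adjusted p was at most 0.05. WARS and DARS lie right of 0 in each window and the mitochondrial members lie left of 0 in the late window.

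Some cytosolic members rose and others fell on each scheduled day of the first 3 weeks. On Day 3, 6 cytosolic members rose and 2 fell, and no mitochondrial member rose and 10 fell, while over all genes 21.6% rose and 32.3% fell. WARS had its largest change on that day, with a log2 fold change of 1.06 (adjusted p = 8.726e-12, 24 animals), and was at 299.7 CPM (median, range 205.6 to 667.1 over 24 samples) against 142.1 CPM (84.0 to 321.5) in the controls. On Day 6, 4 cytosolic members rose and 3 fell, while 2314 of the 13751 tested genes rose and 3820 fell. On Day 9, 7 cytosolic members rose and 7 fell and 1 mitochondrial member rose and 5 fell, against 25.7% and 24.4% of genes. On Days 15 and 21, 5 cytosolic members rose on each, and 6 and 8 fell. Over all tested genes 2187 and 3694 rose and 3403 and 3487 fell on Days 15 and 21. On Day 9 WARS was back near its control level (log2 fold change 0.10, adjusted p = 0.6057). EPRS and NARS rose on each of the 5 scheduled days from Day 3 to 21, with log2 fold changes of 0.15 to 0.30 for EPRS and 0.14 to 0.25 for NARS. RARS2, the mitochondrial arginine enzyme, was the exception in its group, with a rise on Day 9 (0.48) and Day 21 (0.33).

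In the medium window the same lists were mostly lower. Of the cytosolic members 2 rose (WARS and DARS) and 10 fell, and of the mitochondrial members none rose and 12 fell, against 19.9% higher and 25.4% lower over all tested genes. The medians were -0.15 (cytosolic), -0.27 (mitochondrial) and -0.02 (all genes). The log2 fold changes were -0.45 ± 0.08 for VARS, -0.42 ± 0.05 for HARS, -0.40 ± 0.07 for AARS and -0.32 ± 0.05 for MARS. KARS, the lysine enzyme, and IARS, the isoleucine enzyme, which had not passed the early test, were now at -0.32 ± 0.05 and -0.35 ± 0.05 with adjusted p = 3.904e-06 and 2.793e-06. On Day 30, no cytosolic member rose and 11 fell, and 11 mitochondrial members fell, against 11.2% higher and 14.8% lower over all genes.

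The medium counts were lower in both fits that took library series into account. The fit with series as a term took each draw as a separate sample, where the main fit summed the draws of an animal. These fits therefore differ in more than series. With series as a term in 1 fit over all samples, 6 cytosolic and 6 mitochondrial members fell in place of 10 and 12, against 14.4% of genes in place of 25.4%, and AARS lost its call (log2 fold change -0.20, adjusted p = 0.1151). Only 4 high dose animals had medium samples of the same series as their control, and in these 1 cytosolic member rose, 2 fell and 1 mitochondrial member fell, against 4.03% of genes lower, with medians of -0.12 and -0.30 that lay near those over 24 animals. FARS2 turned to a positive value in the first of these fits and YARS2 in the second, neither past the test.

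In the late window most of the family was lower. Of the cytosolic members 2 rose and 13 fell, and of the mitochondrial members none rose and 14 fell (14 animals), against 21.8% higher and 33.5% lower over all tested genes. With a fold change of at least 1.5 as a second condition, 6 cytosolic and 11 mitochondrial members fell, against 18.5% of genes. The median log2 fold change was -0.43 for cytosolic and -0.69 for mitochondrial members and -0.13 for all genes. The scaling moved all genes together here: with DESeq2 size factors the median of all genes was -0.01, a shift of 0.12, and 3996 genes rose and 3954 fell in place of 2995 and 4613. Relative to the median of all genes the members stood at -0.30 (cytosolic list) and -0.57 (mitochondrial list) with both scalings. Scaling shifts all genes nearly alike, so this sameness was fixed in advance and is no separate support.

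AARS2, the mitochondrial alanine enzyme, had the lowest late value of the mitochondrial members. Its level was 31.5 CPM (median, 19.4 to 46.0) in the controls of the 14 animals and 15.6 CPM (7.80 to 24.3) in their late window means, lower in 14 of 14 animals although the ranges overlapped. The log2 fold change was -1.03 ± 0.16 (adjusted p = 5.373e-05), after -0.27 ± 0.06 in the early and -0.41 ± 0.06 in the medium window.

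LARS2, the mitochondrial leucine enzyme, stood at 32.6 CPM (22.3 to 49.2) in the controls and 16.2 CPM (10.3 to 25.4) late, again lower in 14 of 14 animals with overlapping ranges. Its log2 fold change was -1.02 ± 0.12 (adjusted p = 4.966e-06). TARS2, the mitochondrial threonine enzyme, went from 18.3 CPM (12.5 to 26.8) to 9.58 CPM (5.95 to 16.1), with a log2 fold change of -0.89 ± 0.13 (adjusted p = 4.259e-05). The glutamate enzyme EARS2 was at -0.9995 ± 0.1536 (adjusted p = 4.937e-05). FARS2 (-0.11 ± 0.15, adjusted p = 0.5616) and RARS2 (-0.33 ± 0.17, adjusted p = 0.1103) were the 2 mitochondrial members that did not pass the late test. With library series as a term in 1 fit over all samples both passed, FARS2 as higher (0.46 ± 0.13, adjusted p = 0.001622) and RARS2 as lower (-0.43 ± 0.14, adjusted p = 0.003882), so the direction of FARS2 turned and 1 mitochondrial member was then higher. That fit counted repeated draws of an animal as separate samples, so its adjusted p-values are not on the footing of the main test.

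HARS2, the mitochondrial histidine enzyme, passed the test on more scheduled days than any other member, 14 of 15. The control levels of the 14 late animals ran from 28.0 to 53.0 CPM with a median of 34.6, and their late levels from 18.6 to 27.2 CPM with a median of 23.5, so the 2 sets did not overlap. The log2 fold change was -0.64 ± 0.11 (adjusted p = 9.146e-05). Its cytosolic counterpart HARS passed on 13 days and also did not overlap, with 33.4 CPM (27.3 to 52.3) in the controls and 21.5 CPM (17.2 to 26.1) late and a log2 fold change of -0.72 ± 0.09 (adjusted p = 1.086e-05). The 2 genes lie head to head on chromosome 6, HARS at 138055773 to 138072296 on the minus strand and HARS2 at 138072186 to 138080363 on the plus strand. Their outermost starts are 110 bases apart and they share 111 exon bases on opposite strands. The library kit keeps strand, but whether the counting used it is not given in the sources used here, so reads of the shared bases could have been counted for either. Among the other members IARS also did not overlap late, with 70.17 to 106.3 CPM in the controls and 34.35 to 66.88 CPM late. The share of all genes without overlap was not counted. Each late value is the mean of an animal's late draws, while each control is 1 sample, so late ranges can be narrower. The lack of overlap is therefore not a result particular to these genes. All late samples were of series B or C, while 20 of 24 controls were of series A.

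AARS, the cytosolic alanine enzyme, was at 102.4 CPM (72.3 to 169.6) in the controls and 66.6 CPM (46.0 to 87.0) late, lower in 14 of 14 animals, with a log2 fold change of -0.70 ± 0.12 (adjusted p = 0.0001053). VARS, the valine enzyme, went from 76.9 CPM (44.1 to 146.5) to 41.2 CPM (22.7 to 61.9), lower in 13 of 14 animals, and its log2 fold change was -0.85 ± 0.16 (adjusted p = 0.0002269). MARS, the methionine enzyme, went from 95.3 CPM (78.1 to 147.9) to 73.1 CPM (63.6 to 79.3) with a log2 fold change of -0.52 ± 0.09 (adjusted p = 0.0001189). The control and late ranges of these 3 genes overlapped. IARS had the lowest late value of the cytosolic list at -0.89 ± 0.10 (adjusted p = 4.2e-06).

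**Figure D3:**
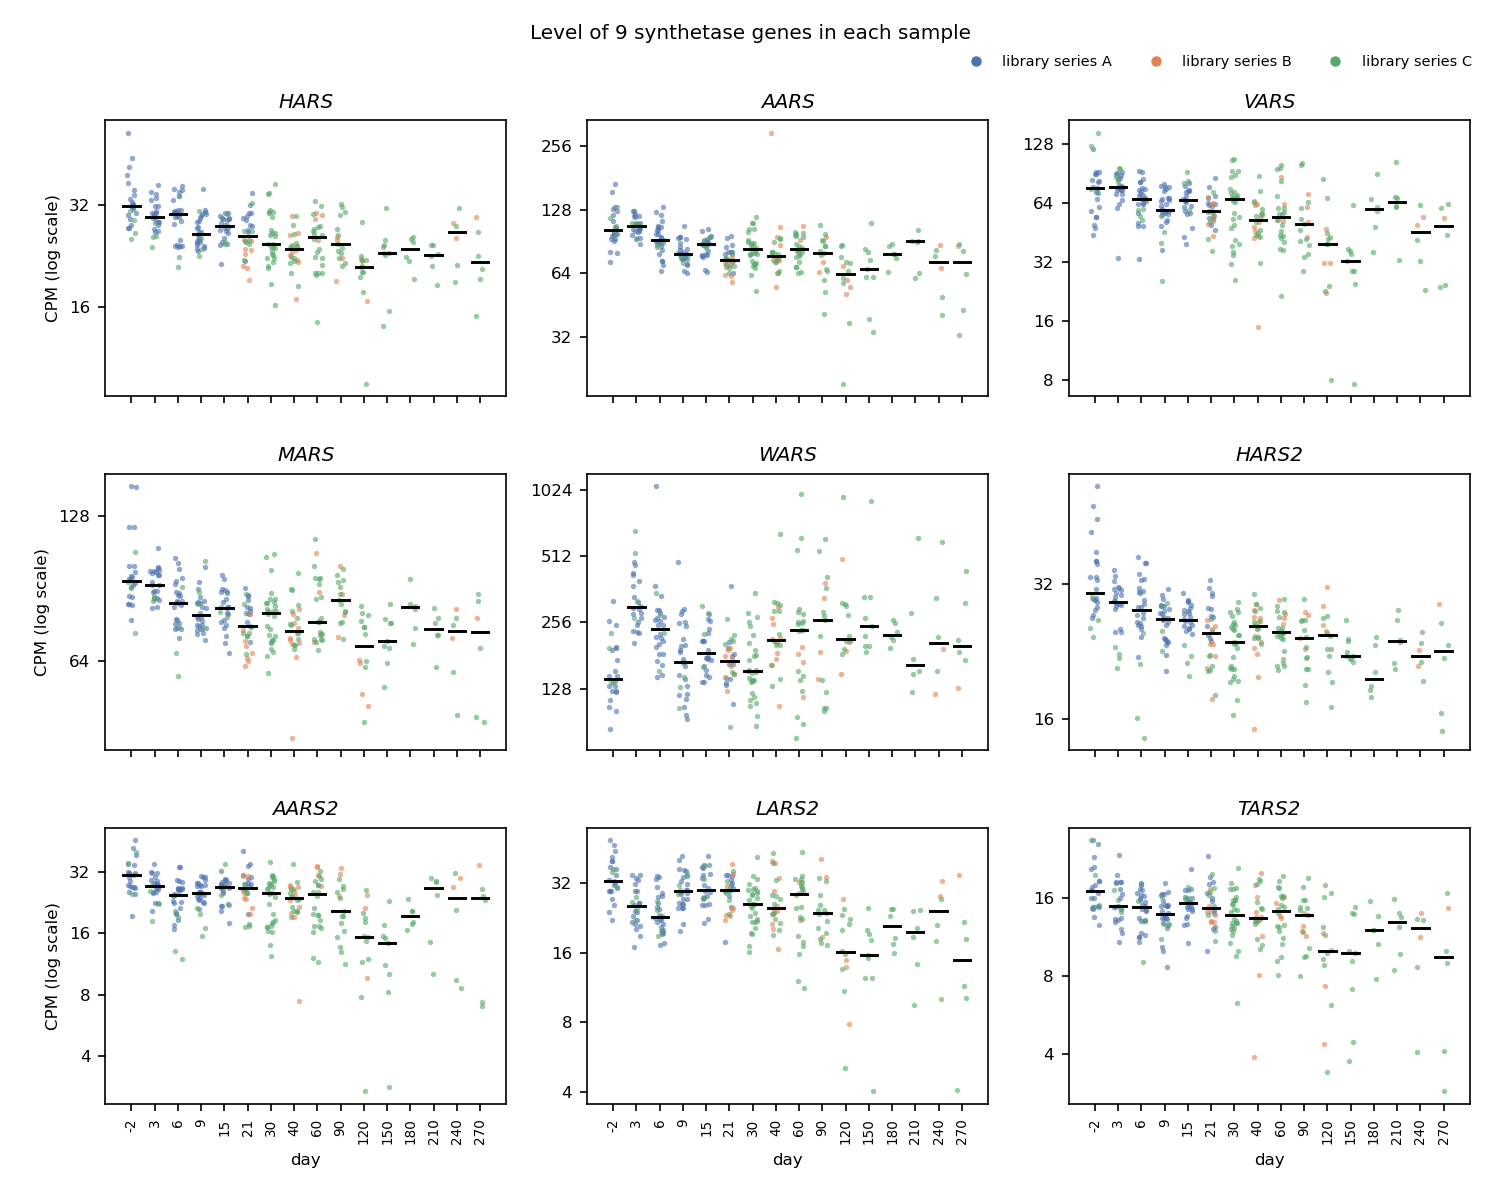
CPM (log scale) of the 9 members with full statistics in each scheduled sample, by day, with Day -2 as the control, a black bar at the median of the day and points coloured by library series. HARS2 fell from a median of 30.6 CPM in the controls to 22.15 CPM on Day 150, WARS stood at 299.7 CPM on Day 3, and series A (blue) ends with Day 21.

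WARS rose while the rest of the list mostly fell. Its level was 135.0 CPM (84.0 to 260.7) in the controls of the 14 animals and 253.7 CPM (170.5 to 923.9) in their late window means, higher in 12 of 14 animals with overlapping ranges. The log2 fold changes were 0.59 ± 0.09 early, 0.50 ± 0.10 medium and 0.90 ± 0.19 late (adjusted p = 4.257e-06, 0.0001938 and 0.0007369). By day WARS passed on 9 of 15 days, namely Days 3, 6 and 15 and each scheduled day from Day 40 to 180. The values on Day 9 (0.10), Day 21 (0.18) and Day 30 (0.02) did not pass, and neither did those on Days 210, 240 and 270 (0.49, 0.63 and 0.57, 6 animals each). The 8 draws outside the schedule, taken at euthanasia, had 232.9 to 923.9 CPM of WARS with a median of 411.5, and these enter the medium and late means. Without them the medium and late calls of WARS remained. WARS shares 11.38% of its exon bases with the neighbouring gene WDR25.

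Other genes of the interferon-gamma response did not all follow WARS. Of 17 listed genes 10 were tested, and 4 rose and 1 fell early, 3 rose and 1 fell in the medium window, and 4 rose and 1 fell late. Over all tested genes 21.1% rose and 27.9% fell early, 19.9% and 25.4% in the medium window, and 21.8% and 33.5% late. IDO1, which breaks down tryptophan, and CD274, the checkpoint ligand PD-L1, rose late by 1.16 ± 0.24 and 1.00 ± 0.21 on the log2 scale (adjusted p = 0.0006635 and 0.000573). CIITA, the activator of MHC class II genes, fell early (-0.57 ± 0.08) and late (-0.98 ± 0.18). On Day 3, when WARS was highest, 6 of the 10 rose and 1 fell, against 21.6% and 32.3% of genes.

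DARS was the second cytosolic member above its control in each window, with log2 fold changes of 0.16 ± 0.06, 0.19 ± 0.07 and 0.49 ± 0.13 (adjusted p = 0.02811, 0.0235 and 0.003649). It was highest on Day 150 (0.83), and on Day 210 its value was -0.32, which did not pass. With library series as a term its medium call was lost.

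The members of the multi-synthetase complex, a grouping made after their values were seen, are DARS, EPRS, IARS, KARS, LARS, MARS, QARS and RARS. Early, 3 of these 8 rose and 1 fell (21.1% and 27.9% of all genes), with a median of 0.04, and late 1 rose and 6 fell (21.8% and 33.5% of all genes), with a median of -0.55. The other 12 cytosolic members had medians of -0.03 early and -0.36 late. LARS, the leucine enzyme, went from 0.05 ± 0.04 early to -0.64 ± 0.12 late, and QARS from 0.04 ± 0.05 to -0.71 ± 0.12. EPRS and FARSB changed side, from 0.24 and 0.29 early to -0.43 ± 0.09 (adjusted p = 0.0008141) and -0.37 ± 0.15 (adjusted p = 0.03893) late. The late calls of FARSA and FARSB, the 2 subunits of the phenylalanine enzyme, were lost with TMM scaling and with DESeq2. GARS, whose gene makes both the cytosolic and the mitochondrial glycine enzyme, passed in no window, and neither did TARS, whose adjusted p was 0.0505 early and 0.05044 late.

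For 13 amino acids the list holds 1 cytosolic and 1 mitochondrial gene, and the mitochondrial gene had the lower log2 fold change in 10 of 13 pairs early, 8 medium and 10 late. The tryptophan pair differed most late, with 0.90 for WARS and -0.62 ± 0.16 for WARS2 (adjusted p = 0.003398). The asparagine pair was at -0.15 (NARS) and -0.82 (NARS2), while in the isoleucine pair the order was the other way, -0.89 for IARS and -0.51 for IARS2. These differences within pairs were not tested.

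**Figure D4:**
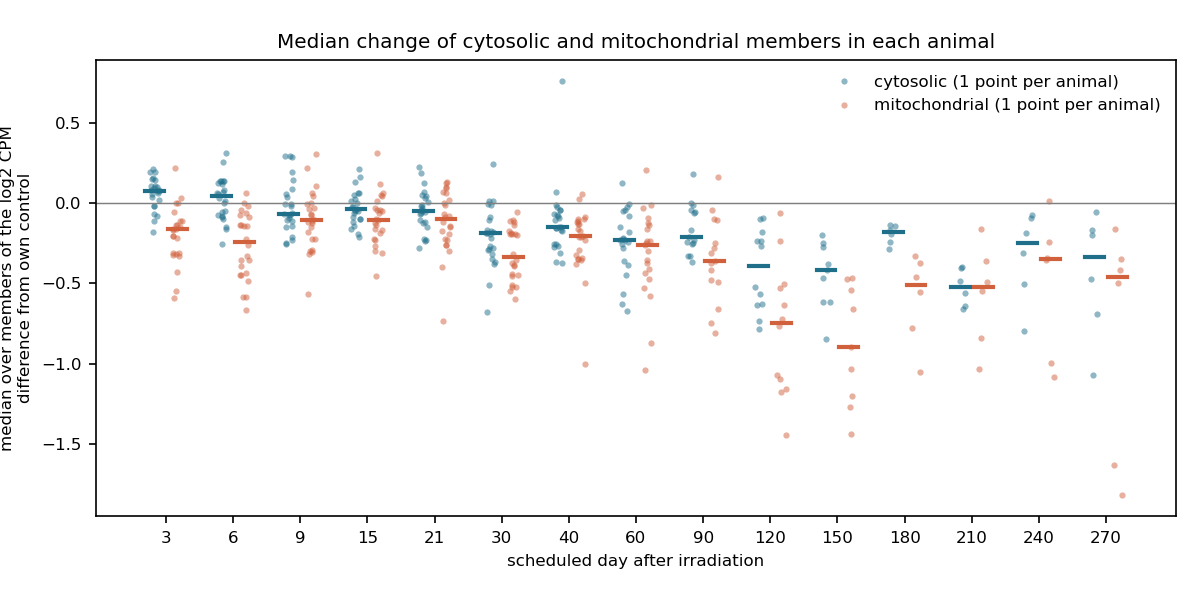
Median over the 20 cytosolic and over the 16 mitochondrial members of the log2 CPM difference from the animal's own control (y axis), 1 point per animal on each scheduled day, with a bar at the median of the animals. The mitochondrial median lay below the cytosolic one in 22 of 24 animals on Day 3 and in 9 of 9 on Day 150, but in 12 of 21 on Day 60 and 4 of 6 on Day 210.

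Over the 15 scheduled days, each against the same animals' controls, cytosolic members rose in 38 and fell in 105 of 300 gene and day pairs, and mitochondrial members rose in 2 and fell in 125 of 240. Over all tested genes 14.6% of pairs rose and 19.4% fell. The controls are shared between days. In the single animals the median over the mitochondrial members lay below that over the cytosolic members in 22 of 24 animals on Day 3 and 23 of 24 on Day 6, in 14 of 24 on Day 9, 15 of 24 on Day 30, 12 of 21 on Day 60, 9 of 9 on Day 150 and 4 of 6 on Days 210 and 240. On Day 210 the medians over animals were -0.524 for cytosolic and -0.520 for mitochondrial members. On Day 150, 2 cytosolic members rose and 12 fell and 13 mitochondrial members fell (9 animals), against 14.7% and 22.7% of genes. The median over mitochondrial members was then -0.89 log2 units (range over animals -1.44 to -0.47) and over cytosolic members -0.42 (-0.85 to -0.20).

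**Figure D5:**
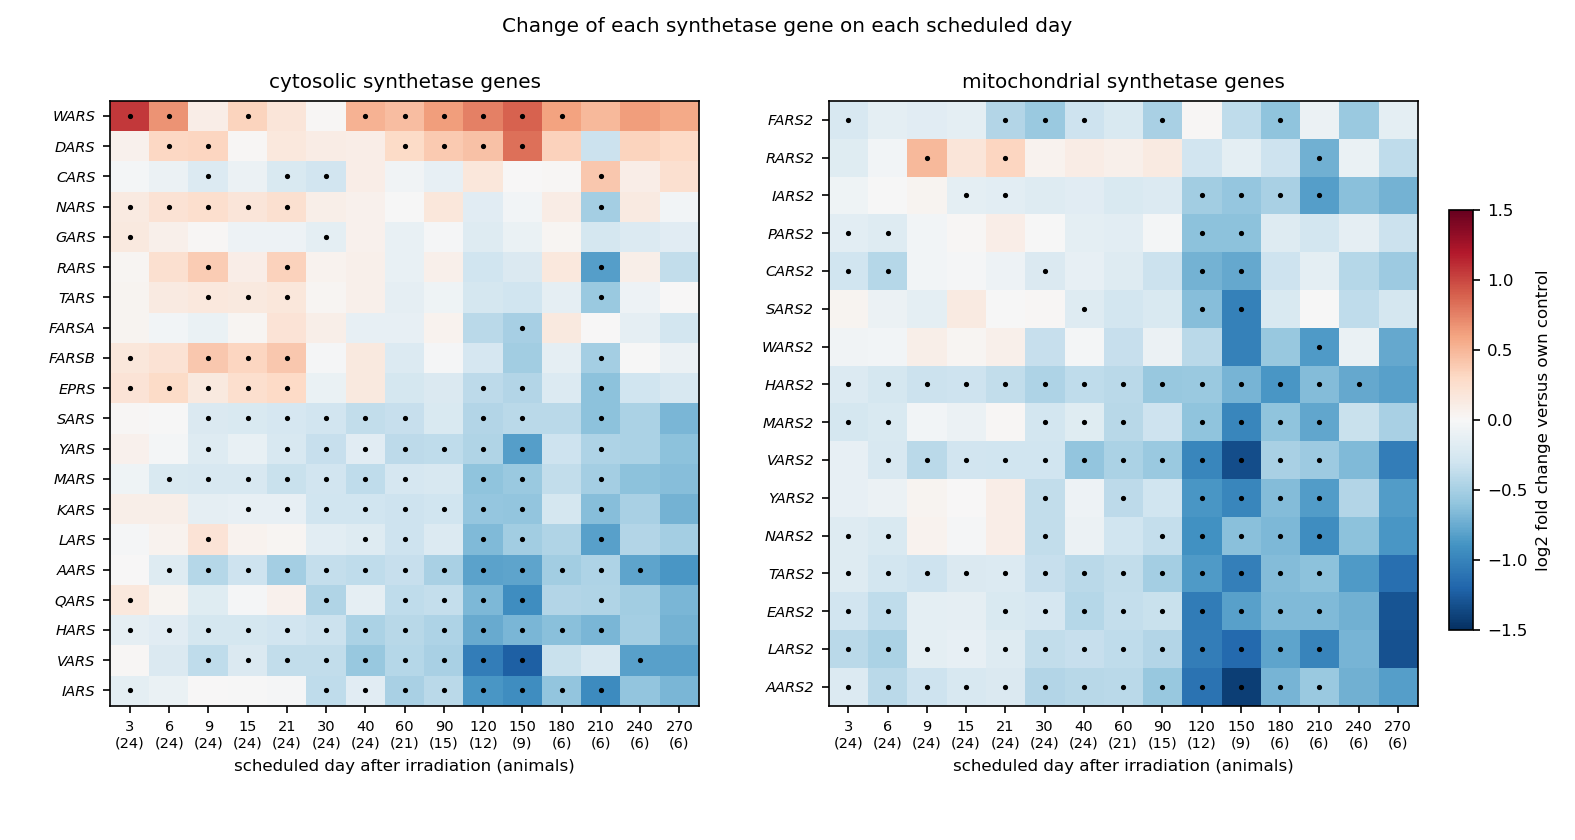
Log2 fold change of each synthetase gene against the own control (colour, red higher and blue lower) on each of 15 scheduled days, with the number of animals under the day and a dot where the adjusted p was at most 0.05. Blue spreads over most of both lists from Day 120 on, WARS stays red on most days, and few dots are seen on Days 240 and 270, while Days 180 and 210, also with 6 animals, hold more.

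The last 4 scheduled days had 6 animals each and differed in their calls. On Day 180, 1 cytosolic member rose and 3 fell and 11 mitochondrial members fell, and on Day 210, 1 rose, 14 fell and 12 fell, against 25.6% and 42.4% of genes in either direction. On Day 240, 2 cytosolic members (AARS and VARS) and 1 mitochondrial member (HARS2) fell, against 6.76% of genes in either direction, while DESeq2 called 7 members against 17.1% of genes, and the fit with library series as a term called 16 against 37.9%. On Day 270 no member passed, against 0.00727% of genes (1 gene). At an unadjusted p under 0.05 were 9 cytosolic and 9 mitochondrial members, against 4060 of the 13751 tested genes. DESeq2 called 10 members against 18.4% of genes, and the fit with library series as a term called 25 against 47.2%. That fit took its spread from all samples and not only from those of the day and their controls. Its counts on Days 240 and 270 are therefore not on the footing of the main test. The medians on Day 270 were -0.44 (cytosolic) and -0.79 (mitochondrial), and they rested on the 2 libraries of that day that stand apart. In the other 4 animals the medians were -0.16 and -0.371, and 2 members fell, against 211 of the 13751 tested genes. In simulated data of the size of Day 240, the edgeR test found 13.6% of genes changed 2-fold, against 89.4% for the late window and 100% for the early window. Each simulation changed only 66 or 67 of 13751 genes at each fold size. In the data 2995 genes rose and 4613 fell in the late window. The adjustment is stricter where few genes change, so these shares do not give the power of the tests on the data.

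Set directly against the early window, the late window of 16 animals had 3 cytosolic members higher (CARS, DARS and WARS) and 17 lower and 15 mitochondrial members lower, against 25.0% and 44.7% of all tested genes. EPRS, FARSB and LARS fell by 0.81, 0.83 and 0.775 on the log2 scale, and YARS2 by 0.89. The medium window of 28 animals had no member higher and 27 lower, 14 cytosolic and 13 mitochondrial, against 27.0% and 30.5% of genes. That second count was smaller within library series: with early and medium samples of 1 series in the same animal (12 animals) 2 members were lower, FARSB and RARS, against 5.03% of genes, while the same 12 animals over all series gave 18. The medians in the 12 animals were -0.04 (cytosolic) and -0.19 (mitochondrial) within series and -0.17 and -0.19 over all series. The samples kept within a series are also fewer and from fewer days, so the part of library series was not told apart from that of sample number.

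Dose and sex were compared in the early window by the interaction with irradiation. No member passed for dose, with 1 (PARS2) at an unadjusted p under 0.05, and none of all tested genes passed while 761 were at an unadjusted p under 0.05. The log2 differences of the members between 10.7 and 9.8 Gy lay between -0.24 and 0.21. No member passed for sex and none was at an unadjusted p under 0.05, while 123 of all tested genes were and none passed. The log2 differences of females from males lay between -0.22 and 0.20. DESeq2 called no member in either comparison. These tests do not show that the doses or sexes acted alike.

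Genes that work beside the synthetases were counted in the same way, to be read against 21.1% of all genes higher and 27.9% lower early and 21.8% and 33.5% late. Of 12 partner genes, which include the scaffolds of the complex and the mitochondrial amidation enzymes, 3 rose and 1 fell early and 6 fell late, when GATB and QRSL1, subunits that make glutaminyl-tRNA in mitochondria, were at -0.89 ± 0.17 and -0.74 ± 0.12. Of 9 cytosolic elongation genes 3 rose early and 5 fell late, among them EEF1G (-0.97 ± 0.18) and EEF2 (-0.48 ± 0.15), while EIF5A rose early (0.45 ± 0.06). Of 9 tested mitochondrial translation factors 3 rose early and 5 fell late, with GFM1, an elongation factor, at -0.68 ± 0.12 and TUFM at -0.44 ± 0.09.

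The stress response genes held both rises and falls, as did all tested genes. The counts here are to be read against 21.1% of all genes higher and 27.9% lower early, and 21.8% and 33.5% late. Of 23 tested targets of ATF4 outside the family, 9 rose and 6 fell early and 6 rose and 7 fell late. CEBPB rose late by 1.90 ± 0.26 and ATF3 rose early by 0.96 ± 0.08 on the log2 scale, whereas PHGDH, the first enzyme of serine synthesis, fell late (-1.40 ± 0.14). Of 14 genes of the integrated stress response itself 5 rose and 4 fell early and 3 rose and 6 fell late, with PPP1R15A at 1.23 ± 0.13 and GCN1, the partner of the kinase GCN2, at -1.09 ± 0.14 late. Of the 7 members with the ATF4 letters, AARS (-0.70), IARS (-0.89), YARS (-0.52) and WARS2 (-0.62) fell late, while CARS was at 0.15, TARS at -0.23 and FARS2 at -0.11, none of them past the test. The late call of YARS was lost with library series as a term (-0.14, adjusted p = 0.09286). Of 12 growth genes that MYC is known to drive, 2 rose and 4 fell early and 11 fell late, among them NOP56 (-1.10 ± 0.13) and CAD (-1.05 ± 0.16).

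Markers of blood cell types moved with the windows, and their part in the changes of the synthetase genes was not tested. The summed level of 12 T cell markers was 2704 CPM (median of controls, 1815 to 4458), 2775 early (1766 to 4835), 2215 in the medium window (316.5 to 3443) and 1783 late (415.9 to 3047), and 12 of 12 fell late. The 10 B cell markers went from 1565 CPM (377.1 to 2709) to 698.2 early (219.2 to 1885), 990.6 medium (179.3 to 2752) and 328.2 late (67.6 to 1020), and 10 of 10 fell early and late. The 9 neutrophil markers stood at 3495 CPM (1007 to 9595) in the controls and 7565 (1718 to 20160) late, with 9 of 9 higher late and 1 of 9 early. The 12 erythroid markers went from 6566 CPM (1872 to 12000) to 18020 early (3977 to 89640) with 12 of 12 higher, and the 8 markers of cycling cells from 104.9 (73.3 to 214.1) to 161.0 CPM (91.8 to 281.8), with 7 of 8 higher. Late, 6 of 7 tested monocyte markers and 8 of 8 tested platelet markers rose and 4 of 9 NK and 4 of 8 plasma cell markers fell. Marker counts are to be read against 21.1% of all tested genes higher and 27.9% lower early, and 21.8% and 33.5% late. No listed marker in the table was at 0 in all samples. Without the 5 libraries that stand apart, the late window had 2 members higher and 28 lower and the medium window 2 and 22. Of the 13751 tested genes 2958 were then higher and 4512 lower late, and 2764 and 3446 in the medium window.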

How the data were processed

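Whole blood RNA was rRNA-depleted, prepared with a strand-keeping kit and sequenced. The authors trimmed reads (cutadapt 2.10), aligned them (STAR 2.7.6a) to Mmul_10 and made gene counts with Subread 2.0.1. The deposited count table, which holds whole-number counts, was used for all tests. The authors also deposited log2 values made by conditional quantile normalization, which were used only as an alternative. Groups, animals and days came from the labels, and no column was left unmapped.

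A gene was kept where 80% or more of the samples held 3 or more counts, and tested with edgeR 4.0.16 (R 4.3.3): upper quartile scaling, counts of an animal summed per window, animal as block, Benjamini-Hochberg adjustment over all 13751 genes, passed at 0.05. The animal pairs the samples. CPM carry the same scaling, and SE is the fold change divided by the root of F. Full statistics are for the 5 cytosolic and 4 mitochondrial members past the test on the most scheduled days (ties by the largest window change), with WARS among them, and at most 3 genes per other list were named by the number of windows passed. The members and all lists were chosen with earlier results of these data known. Alternatives were other filters, TMM scaling, DESeq2 1.42.0, limma 3.58.1, no animal block and subsets by library series. Another had library series as a term in 1 fit over all samples, with animal as block and draws not summed. No 2 libraries held identical counts. The test was checked on simulated data.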

Additional observations from a re-analysis of the deposited data

Results flagged for a closer look

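In 2 of 55 tests over the samples of a day, 1 sample stood far from the others by Dixon's criterion. Chance flags about 1 in 20 such tests. On Day 150 the highest of 9 samples had 910.9 CPM of WARS and the next 334.4, a gap of 0.797 of the range. On Day 210 the highest of 6 samples had 619.6 CPM of WARS and the next 280.9, a gap of 0.682 of the range.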

How the results depend on the processing

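Of the values for window counts, medians and day counts under the alternatives, 150 stayed near the main value (counts within 1.5 times, medians within 1 SD over animals) and 15 moved, and of the values for the 9 members with full statistics 253 kept their call, 8 lost it and none reversed. With library series as a term, 12 members were lower in the medium window in place of 22 and 4 higher late in place of 2. That fit also did not sum the draws of an animal. With samples of the control's own series only (4 animals in the medium window), 1 was higher and 3 lower in place of 2 and 22, and 60 in place of 105 member and day pairs were lower on the 7 days that allowed it, all of the drop on Days 21, 30 and 40, where the animals also went from 24 to 16, 4 and 4. Medium against early, 2 members were lower within series in place of 27, with a cytosolic median of -0.036 in place of -0.184, and the same 12 animals over all series gave 1 higher in place of 0. In the 14 late animals 3 members rose early in place of 6. On Day 240 DESeq2 called 7 members and the series term 16 in place of 3, and on Day 270 DESeq2 called 10, the series term 25, no filter on low counts 3 and leaving out the libraries that stand apart 2, in place of 0. The cause was not tested. Samples are paired by animal: with no replicate block, 5 members rose and 13 fell early, 2 and 21 in the medium window and 2 and 29 late, and 34 pairs were higher and 195 lower over the days. The alternatives for medium against early, for Days 240 and 270 and for the 5 libraries that stand apart were chosen after seeing the data. Late values within 1 series could not be had, since 1 animal had both. In data simulated on the late window, 40.3% of genes changed 1.5-fold were found. That simulation changed only 67 of 13751 genes at this size, so the share does not give the power on the data.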
